A study of Mus musculus with 2 samples.

Results

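Translation factors carry messenger RNA and transfer RNA through the ribosome, and aminoacyl-tRNA synthetases load each transfer RNA with its amino acid. Initiation factors (eIF) bring the small ribosomal subunit to the capped end of a messenger RNA and place it on the start codon, elongation factors (eEF) drive the cycle that adds amino acids, and release and recycling factors end it. Undifferentiated embryonic stem cells are known for a lower rate of protein synthesis than their differentiating progeny, which makes these genes of interest in such a comparison. The genes described here are those with symbols of translation factors (Eif, Eef, Etf1, Gspt, Abce1), poly(A)-binding proteins (Pabp), accessory proteins of the synthetase complex (Aimp) and synthetases (symbols of 4 to 6 letters ending in ars, with or without a digit). They were picked by symbol and not by a measured value, although the choice was made with earlier results of these data known. The rule found 58 genes, measured by 75 probes, among 8102 genes that could be named on the array, of which 44 are translation factors, poly(A)-binding proteins or their regulators, 13 synthetases and 1 a synthetase accessory protein. Eif4g1, Etf1, Kars, Lars and Eprs had no probe that could be named and were not analysed here. Farsa, whose symbol falls outside the rule, is given with the related genes.

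The study measured mouse RNA with bead arrays in 1 sample labelled ES at day 0 and 1 labelled EB at day 4, abbreviations that in stem cell work usually mean embryonic stem cells and embryoid bodies, which are clumps of such cells left to differentiate. The labels give no strain, genotype, medium or feeder layer, and both samples share the RNA purification kit and the biotin labelling. With 1 array per group there was no spread between samples, so no test was possible, and the day, the culture and the array cannot be told apart. Transcript level is given as quantile-normalized signal in arbitrary units, and differences as log2 of EB over ES with a standard error that covers only the beads of a probe within each array. The signals of different probes are not compared with each other.

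A gene was counted as detected where its brightest probe reached a signal floor of 230.0 in at least 1 array, which held for 3867 of the 8102 named genes (47.7%) and for 51 of the 58 (87.9%). A gene was counted as higher or lower in EB at 1.5-fold, a log2 difference of 0.58. A median of 38 beads in ES and 37 in EB lay behind each signal, and the bead-level standard error of the 51 genes ran from 0.05 to 0.16 on the log2 scale, with a median of 0.08. Over 447 genes with several probes above the floor, the differences given by the brightest and the next probe deviated from each other with a standard deviation of 0.39, so a difference smaller than this from a single probe lies within the disagreement between probes. The labels were set against markers, which were chosen with earlier results of these data known. The direction of the markers is therefore no independent check of the labels. The 9 measured markers of undifferentiated cells had a summed signal of 43136 in ES against 4894 in EB, with 8 of the 9 lower in EB. The 8 measured markers of early differentiation had 1973 in ES against 10429 in EB, with all 8 higher. Of 7 measured fibroblast genes, which a feeder layer would bring, 5 were under the floor in both arrays (Col1a2, Col3a1, Col5a2, Dcn and Postn). The other 2 went opposite ways. Col1a1, a fibrillar collagen, had 2602 in ES against 1007 in EB and was 2.58-fold lower, and Fbln2, a matrix protein, had 365 and 2205 and was 6.04-fold higher. Their summed signal was 2967 in ES against 3212 in EB, a total that hides these opposite differences and gives no share of fibroblasts. The part of such cells in the differences below was not tested. In bulk RNA, fewer cells with a transcript and less of it per cell cannot be told apart.

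Most of the translation genes differed by less than 1.5-fold between the samples, and 6 passed that limit. At 1.5-fold 2 of the 51 detected genes (3.92%) were higher in EB, against 12.4% of all detected named genes, and 4 (7.84%) were lower, against 12%. At 2-fold 1 was higher and 2 were lower, where 3.72% and 5.35% of all detected named genes were. The higher genes were Eif4e3 and Eif4g3, both of the machinery that reads the messenger RNA cap. The lower genes were Aars (alanine synthetase), Eif2s2 (the beta subunit of eIF2), Eif4ebp1 (an inhibitor of cap-dependent initiation) and Cars2 (mitochondrial cysteine synthetase). The other 45 stayed under 1.5-fold (88.2%, against 75.6% of all detected named genes). A log2 difference under 0.1 in size was found for 17 of the 51 (33.3%), against 16.7% of all. The standard deviation of the log2 difference was 0.41 over the 51 genes and 0.65 over all 3867. Among genes with signals of at least 1000 in both arrays the contrast was smaller. There the standard deviation was 0.38 over 30 of the genes and 0.47 over 1377 named genes, and 86.7% against 84.3% stayed under 1.5-fold. Of these 30 genes 1 was higher (3.33%, against 8.71% of the 1377) and 3 were lower (10%, against 6.97%). The median difference was -0.05 in the 51 genes, with quartiles of -0.38 and 0.11, and 0.06 in all detected named genes, with quartiles of -0.26 and 0.35. Without quantile normalization the median of the 51 genes was 0.0018, so the side of 0 on which it lies depends on the scaling.

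**Figure D1:**
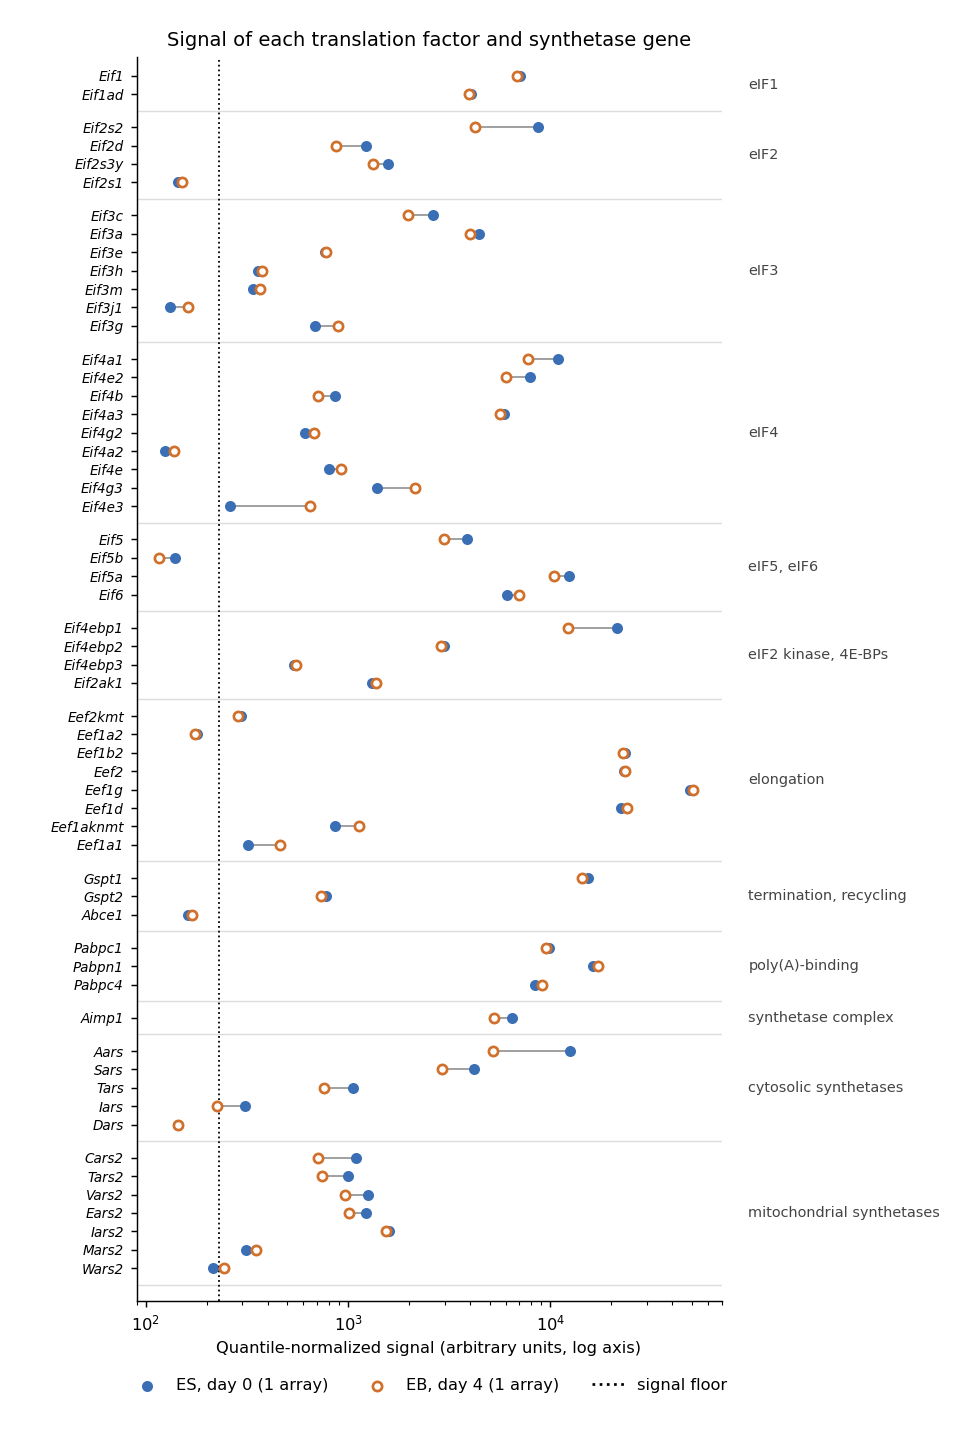
Quantile-normalized signal (arbitrary units, log axis) of 57 of the 58 genes in the ES array (filled) and the EB array (open), grouped by role and ordered within a role by their difference, with the signal floor of 230.0 dotted. Signals are to be compared along a row only. The pairs lie close together except for Eif2s2, Eif4g3, Eif4e3, Eif4ebp1, Aars, Cars2 and a few smaller gaps.

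The eIF2 complex, which carries the initiator transfer RNA and whose phosphorylation shuts initiation down under stress, held the one initiation factor that was lower in EB by 1.5-fold. Eif2s2 had a signal of 8669 in ES against 4247 in EB. The EB signal was thus 2.04-fold lower, with a log2 difference of -1.03 ± 0.07 (bead-level standard error). Eif2s3y, which encodes the gamma subunit from the Y chromosome, had 1579 and 1329, a log2 difference of -0.25. Eif2d, a factor of non-canonical initiation and of subunit recycling, had 1219 and 867, a log2 difference of -0.49. All 3 detected genes of the group had a negative difference, and only Eif2s2 passed 1.5-fold. Of all detected named genes 44.5% had a negative difference and 12% were lower by 1.5-fold, and 3 genes are too few to read further. The probe of Eif2s1, the alpha subunit that the stress kinases phosphorylate, stayed under the floor in ES (144) as in EB (150) and gave no ratio.

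The scaffold complex eIF3, which binds the small subunit and keeps it open for messenger RNA, held none of the genes past 1.5-fold among its 6 detected subunits, with a median log2 difference of 0.04. Of all detected named genes 12.4% were higher and 12% lower, and 6 genes are too few to read further. Eif3c, a core subunit, was the lowest, with signals of 2630 in ES against 1986 in EB and a log2 difference of -0.41. Its second probe gave -0.38, so the probes of Eif3c gave like values. Eif3g, an RNA-binding subunit, was the highest at 0.38, with signals of 684 and 887. Eif3a, the largest core subunit, had -0.15 by its brighter probe, while its second probe was under the floor in both arrays. Eif3e, Eif3h and Eif3m lay between 0.02 and 0.13, where the signals of Eif3h and Eif3m were near the floor. Eif3j1, the loosely bound subunit, was under the floor.

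Within eIF4, the group that recognises the cap and unwinds the messenger RNA, 2 of 8 detected genes were higher in EB and none was lower by 1.5-fold. Of all detected named genes 12.4% were higher and 12% lower, and 8 genes are too few for the share to be read further. By sign alone, 4 had a positive and 4 a negative difference. Eif4e3, a less studied member of the cap-binding eIF4E family, had a signal of 262 in ES, just over the floor, and 650 in EB. That made it 2.48-fold higher, with a log2 difference of 1.31 ± 0.13, the highest log2 difference among the 51 genes. Its second probe had 202 in ES, under the floor, and 261 in EB, at least 1.14-fold higher and under the 1.5-fold limit. Eif4e itself, the main cap-binding protein, had 802 and 922, a log2 difference of 0.20. Eif4e2, a cap-binding relative known as a repressor because it does not engage the eIF4G scaffold, had 7941 and 6045 by its brighter probe, a log2 difference of -0.39, and 526 and 505 by its second, a log2 difference of -0.06. Of the 3 family members only Eif4e3 passed the limit.

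The other eIF4 gene past the limit was a scaffold. Eif4g3, which bridges the cap-binding protein and the ribosome, had signals of 1392 in ES against 2140 in EB and was 1.54-fold higher, with a log2 difference of 0.62 ± 0.07 that exceeds the limit by less than its bead-level error. Eif4g2, a related scaffold that lacks the contact to Eif4e, had a log2 difference of 0.14. The helicase gene Eif4a1, which unwinds the leader of messenger RNAs, had 10927 and 7724, a log2 difference of -0.50. Its relative Eif4a3, a core part of the exon junction complex on spliced RNA, had -0.07, and Eif4a2 was under the floor. Eif4b, which stimulates the helicase, had 863 and 710 by its brighter probe and 811 and 744 by its second, log2 differences of -0.28 and -0.13. Of these scaffold and helicase genes only Eif4g3 passed the limit.

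Of 4 detected regulators of these factors 1 was lower in EB by 1.5-fold, as were 12% of all detected named genes, and none was higher. Eif4ebp1 encodes a binding protein that holds Eif4e away from the scaffold until the growth kinase mTOR phosphorylates it. Its signal was 21361 in ES against 12226 in EB. This was a 1.75-fold fall, with a log2 difference of -0.81 ± 0.07. A second probe of Eif4ebp1 was under the floor in both arrays. With the mean over both probes the log2 difference was -0.54, under the limit. The related Eif4ebp2 (-0.05) and Eif4ebp3 (0.03) differed by less than 0.1. Eif2ak1, the haem-regulated kinase of eIF2, had 1307 and 1377, a log2 difference of 0.08.

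The genes of subunit joining and of the first steps around it stayed under the limit. At 1.5-fold 12.4% of all detected named genes were higher and 12% lower, and so few genes cannot be read further. Eif5, which triggers the GTPase of eIF2, had 3860 in ES against 2968 in EB, a log2 difference of -0.38. Eif6, which keeps free subunits apart, had 6070 and 6954, a log2 difference of 0.20. Eif5a, whose protein carries the unusual amino acid hypusine and helps the ribosome past difficult stretches, had 12388 and 10387 by its brighter probe and 6693 and 7441 by its second. The log2 differences were -0.25 and 0.15, so its probes disagreed in sign. Both probes of Eif5b were under the floor. Eif1, a factor of start codon choice, and Eif1ad, which has an eIF1A-like domain, had log2 differences of -0.05 (7077 and 6851) and -0.04 (4059 and 3954), and both signs turned without quantile normalization.

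**Figure D2:**
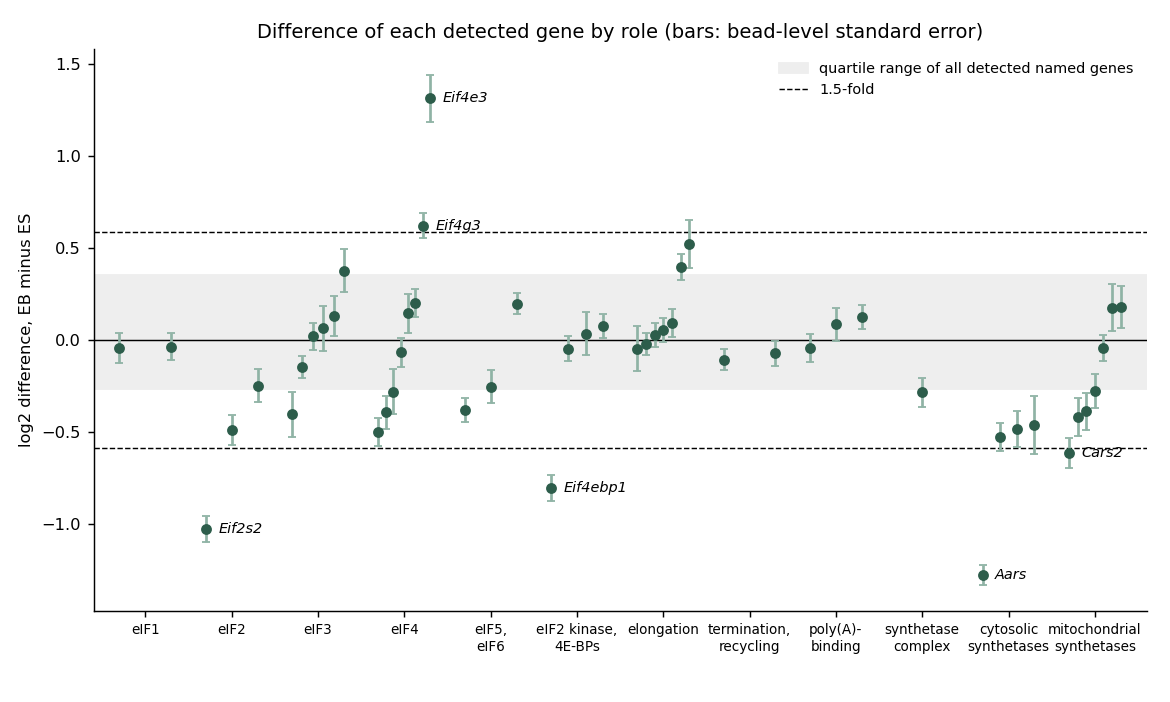
Log2 difference in signal, EB minus ES, of 50 of the 51 detected genes by role, each point 1 gene with its bead-level standard error, with the 1.5-fold limits dashed and the quartiles of all 3867 detected named genes (-0.26 and 0.35) shaded. The elongation, termination and poly(A)-binding genes lie between the limits, and the 4 detected cytosolic synthetases all lie under 0.

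None of the 7 detected genes of elongation passed the limit, where 12.4% of all detected named genes were higher and 12% lower. With 7 genes this cannot be read further. Eef1g, Eef1b2 and Eef1d encode subunits of the complex that recharges eEF1A with GTP. Eef1g had 48677 in ES against 50499 in EB, Eef1b2 had 23308 and 22931, and Eef1d had 22300 and 23775. Their log2 differences were 0.05, -0.02 and 0.09, of which the first 2 were under their bead-level errors and the last just over it (0.08). Eef2, which moves the ribosome by 1 codon, had 23017 and 23434 by its brightest probe, with log2 differences of 0.03, -0.16 and 0.05 over its 3 probes. The sign of Eef1b2 turned without quantile normalization and that of Eef2 with the mean over probes. Eef1a1, the carrier of charged transfer RNA, was the highest of the 7 detected elongation genes, with 322 in ES against 461 in EB and a log2 difference of 0.52. Both signals lay near the floor, and the gene has many near-identical copies in the genome, so the value of this single probe is uncertain. Eef1a2, the form of adult muscle and nerve, stayed under the floor (180.0 in ES, 176 in EB). Among the enzymes that modify these factors, Eef1aknmt, a methyltransferase of eEF1A, had 863 and 1135 by its brighter probe and log2 differences of 0.40 and 0.12 by its 2 probes. Eef2kmt, a methyltransferase of eEF2, had 297 and 287, both near the floor, a log2 difference of -0.05.

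Gspt1 encodes the GTPase eRF3 that works with the release factor, and its signals were 15347 in ES against 14247 in EB, a log2 difference of -0.11. Its close relative Gspt2 had 773 and 735, a log2 difference of -0.07. Abce1, which splits the ribosome after release, was under the floor in both arrays. Pabpn1, the nuclear poly(A)-binding protein, had a log2 difference of 0.08, and Pabpc4, a cytoplasmic one, had 8367 and 9115, a log2 difference of 0.12. Pabpc1, the main cytoplasmic form, had 9798 and 9492 by its brightest probe. Its 3 probes gave log2 differences of -0.05, -0.28 and -0.12, and the sign of its brightest probe turned without quantile normalization. No gene of these roles reached 1.5-fold in either direction, where 12.4% of all detected named genes were higher and 12% lower. These genes are too few to read further.

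Of 12 detected synthetase genes 2 were lower in EB by 1.5-fold, Aars and Cars2, and none was higher. These 2 make 16.7%, near the 12% of all detected named genes that were lower, while 12.4% of all were higher. By sign alone, 9 of the 12 had a negative difference and 3 a positive one, while 44.5% of all detected named genes had a negative one. The median log2 difference was -0.40 in the 12 synthetases and -0.03 in the 38 detected translation factors, poly(A)-binding proteins and regulators. The synthetases are too few for the share to be read further. Without quantile normalization 8 of the 12 were negative, as Iars2 turned to 0.0018, and the median was -0.39.

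Of 4 detected cytosolic synthetases only Aars was lower in EB by 1.5-fold, and the other 3 had negative differences under the limit. Aars, which charges the alanine transfer RNA, had a signal of 12544 in ES against 5174 in EB. It was 2.42-fold lower, with a log2 difference of -1.28 ± 0.05. The second probe of Aars had 365 and 349, much nearer to the floor, and a log2 difference of -0.07 ± 0.10, so the fall in signal rests on 1 of 2 probes. Sars, the serine enzyme, had 4174 in ES against 2898 in EB, a log2 difference of -0.53. Tars, the threonine enzyme, had 1057 and 757, a log2 difference of -0.48. Iars, the isoleucine enzyme, had 310 in ES and lay under the floor in EB, a ratio of at least 1.35, and its other 2 probes stayed under the floor throughout. The probe of Dars, the aspartate enzyme, stayed under the floor (144.8 and 144.5). Aimp1, a scaffold of the complex that gathers several of these enzymes, had 6440 and 5285, a log2 difference of -0.29.

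The promoters of these genes are shown because several synthetase genes are known targets of the amino acid response, in which the transcription factor ATF4 binds a short element near the start site. The 120 bases before and 20 after the start are printed from the promoter table of RefSeq (build GRCm38.p6) in the direction of transcription for the 4 detected cytosolic synthetases and for Eif2s2 and Cars2, which passed 1.5-fold. Promoters of Eif4ebp1, Eif4e3 and 10 further genes of the 58 are not in the table used here. Eif4g3, which also passed 1.5-fold, is not printed, so every printed gene had a lower signal in EB. Capitals mark the element TGATGNAA, searched on both strands, and the E-box CACGTG, the palindromic site of Myc-family factors, where they lie within the printed bases.
Aars, chr8:111033722-111033861, plus strand: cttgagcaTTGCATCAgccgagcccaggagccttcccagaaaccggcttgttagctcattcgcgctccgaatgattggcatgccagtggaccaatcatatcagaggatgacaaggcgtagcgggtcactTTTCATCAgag
Tars, chr15:11399639-11399778, minus strand: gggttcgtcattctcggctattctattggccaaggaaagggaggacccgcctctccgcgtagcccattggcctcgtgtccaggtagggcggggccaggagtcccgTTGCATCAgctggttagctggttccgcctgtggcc
Iars, chr13:49682010-49682149, plus strand: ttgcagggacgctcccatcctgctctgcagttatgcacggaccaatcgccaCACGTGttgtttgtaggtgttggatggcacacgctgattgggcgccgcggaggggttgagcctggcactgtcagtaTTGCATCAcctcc
Sars, chr3:108445240-108445379, minus strand: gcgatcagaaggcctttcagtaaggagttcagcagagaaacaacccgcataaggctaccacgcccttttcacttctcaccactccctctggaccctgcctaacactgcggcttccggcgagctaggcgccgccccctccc
Eif2s2, chr2:154892887-154893026, minus strand: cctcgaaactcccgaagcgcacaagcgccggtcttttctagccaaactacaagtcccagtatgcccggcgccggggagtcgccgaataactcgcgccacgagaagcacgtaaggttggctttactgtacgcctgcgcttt
Cars2, chr8:11550752-11550891, minus strand: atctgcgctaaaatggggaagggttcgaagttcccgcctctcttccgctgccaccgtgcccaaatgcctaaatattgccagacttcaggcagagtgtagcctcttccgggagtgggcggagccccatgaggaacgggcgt

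Over the table's whole windows of 300 bases around the start, the amino acid response element was found in 3 of the 46 genes with a promoter in the table, and these were Aars, Tars and Iars. It was present in 3.97% of all 32851 windows and in 5.36% of the 56 windows of these genes. In Aars it began 112 bases before the start and again at base 10 after it, in Tars 15 bases before the start and in Iars at base 8 after it, in each case on the strand opposite to the gene. The log2 differences of Aars and Tars were -1.28 and -0.48, Iars has only the bound of at least 1.35-fold, and Sars, whose window holds no match, had -0.53. The E-box was found in 10 of the 46 genes and in 21.4% of their windows, against 7.15% of all windows, although windows of 1 gene with several starts overlap. These 10 genes were Aars, Tars, Iars, Ears2, Eef1aknmt, Eef2, Eif3a, Eif4a1, Eif4e and Eif5a, with differences of either sign. A match of letters describes the sequence and says nothing of binding.

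**Figure D3:**
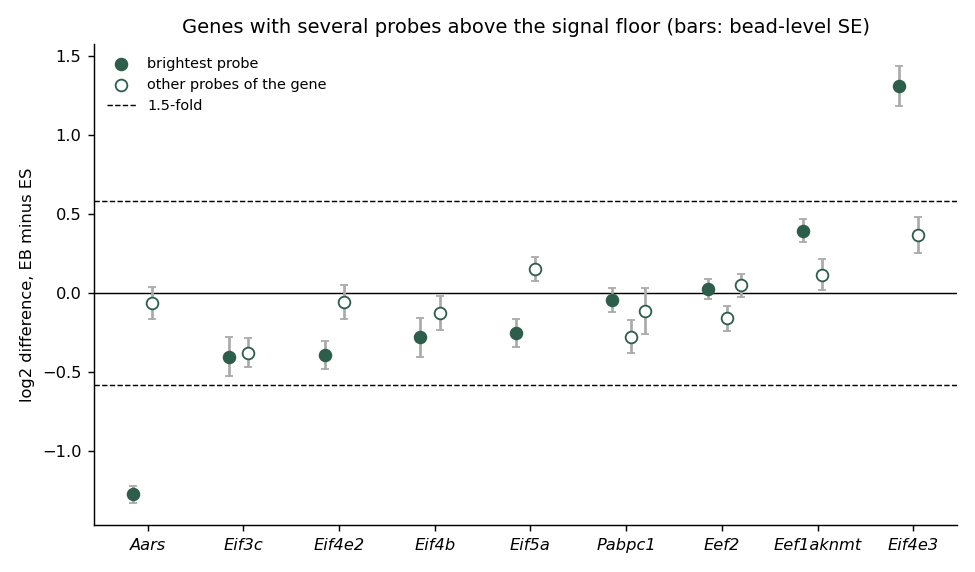
Log2 difference in signal, EB minus ES, given by each probe of the 9 genes with several probes above the signal floor, with bead-level standard errors. The brightest probe (filled) and the next gave the same sign in 7 of 9 genes, and their gap was widest in Aars (1.21) and Eif4e3 (0.94).

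Mitochondrial synthetases, which are encoded in the nucleus and charge transfer RNA inside the organelle, were more mixed. Of the 8 detected genes 5 had a negative and 3 a positive difference, with a median of -0.16. Cars2, the cysteine enzyme, had 1094 in ES against 714 in EB and was 1.53-fold lower, with a log2 difference of -0.62 ± 0.08, past the limit by less than its bead-level error. Tars2 (threonine) had -0.42, Vars2 (valine) -0.39 and Ears2 (glutamate) -0.28. Iars2 (isoleucine) had -0.04, and Mars2 (methionine), with signals near the floor, 0.17. Wars2 (tryptophan) was above the floor in EB alone, with a signal of 243 and a ratio of at least 1.06. The cytosolic and mitochondrial forms of 1 amino acid could be set side by side for threonine, where Tars and Tars2 had log2 differences of -0.48 and -0.42. For isoleucine, the EB signal of Iars was under the floor, so it was not set against Iars2.

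Several probes above the floor were available for 9 genes. The brightest and the next probe gave the same sign in 7 of the 9, and the signs differed for Eef2 and Eif5a. The median gap between the brightest and the next probe was 0.28, and the narrowest was 0.03 in Eif3c. It was 1.21 in Aars and 0.94 in Eif4e3, the 2 genes of this set past 1.5-fold. In both the second probe lay near the floor. Eif2s2, Eif4g3 and Cars2 have 1 probe each, so no second probe bears on them.

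Genes that work alongside the factors were taken from lists set for this comparison. Among 17 detected helpers and modifiers of translation none reached 1.5-fold in either direction. Of all detected named genes 12.4% were higher and 12% lower. Ncbp2, a subunit of the nuclear cap-binding complex, was the highest at 0.58, just under the limit, and Xpot, which exports transfer RNA from the nucleus, the lowest at -0.50. Farsa, a subunit of the cytosolic phenylalanine synthetase, had a log2 difference of -0.25 by its brighter probe. Of 15 detected genes around mTOR and its S6 kinase branch 2 were higher (13.3%) and 1 lower (6.67%), near or under the shares of all detected named genes (12.4% and 12%). Mknk2, a kinase that phosphorylates Eif4e, had 1921 in ES against 3150 in EB and was 1.64-fold higher. Akt1s1, an inhibitory subunit of mTOR complex 1, had 1050 and 1661 and was 1.58-fold higher. Rps6ka3, a growth factor-activated kinase of the RSK family, had 580 and 292 and was 1.99-fold lower. Myc, Akt1, Rptor, Rps6kb2 and Lamtor3 were under the floor in both arrays.

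None of 5 detected genes of the stress and amino acid response passed the limit, where 12.4% of all detected named genes were higher and 12% lower. By sign, 4 of the 5 had a negative difference, against 44.5% of all detected named genes. With 5 genes nothing further can be read from this. Phgdh, the first enzyme of serine synthesis and a known ATF4 target, was the lowest at -0.48, with 705 in ES against 504 in EB. Gcn1, which helps the kinase that senses uncharged transfer RNA, had -0.26 and Impact, an inhibitor of that kinase, 0.32. Atf4, Asns, Ddit3 and Trib3 had no probe that could be named and were not analysed here. None of 4 detected translation factors of mitochondria passed the limit, too few to be read against the same shares. They ran from -0.41 in Gfm2, a factor of mitochondrial ribosome recycling, to -0.0046 in Tufm, the mitochondrial counterpart of eEF1A, which is too near 0 to give a side. Messenger RNAs that begin with a terminal oligopyrimidine (TOP) tract are translated under mTOR control, and 12 such genes, 9 of them among the 58, were detected. None of the 12 reached 1.5-fold, where 12.4% of all detected named genes were higher and 12% lower. Their median was 0.04, with a range from -0.28 in Eif4b to 0.52 in Eef1a1.

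**Figure D4:**
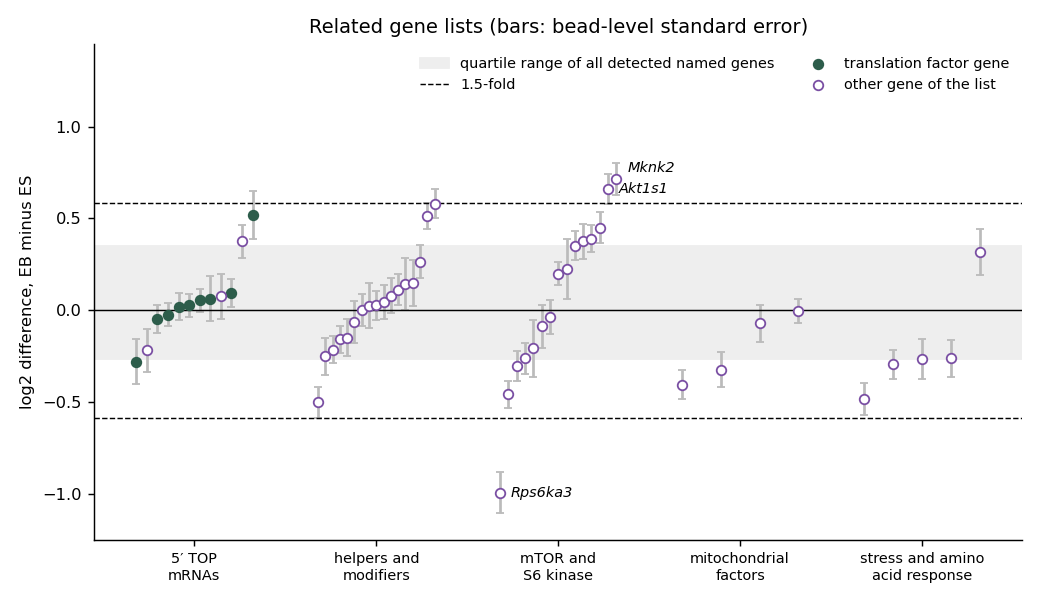
Log2 difference in signal, EB minus ES, of detected genes in 5 lists of related genes, with bead-level standard errors, the 1.5-fold limits dashed and the quartiles of all detected named genes shaded. Mknk2, Akt1s1 and Rps6ka3 of the mTOR list lie outside the limits, and the genes of the other 4 lists lie between them.

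The 6 genes past the limit were followed through the other ways of processing the arrays. The series value table, the signals without quantile normalization and the normexp background can move each of them, and all 6 stayed past 1.5-fold in the same direction under these 3. The mean over probes can move only Aars, Eif4e3 and Eif4ebp1, which have a second probe, and under it Eif4ebp1 fell short of the limit. The settings on detection and the floor leave the 6 values as they are by construction. The log2 difference of Eif2s2 ran from -1.06 to -0.96. That of Aars ran from -1.31 to -0.67 and that of Eif4e3 from 0.84 with the mean over probes to 2.57 with the series value table. The values with the mean over probes, -0.67 in Aars and 0.84 in Eif4e3, are by construction the averages of their 2 probes. The cause of the wider value of Eif4e3 in the series value table was not tested.

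**Figure D5:**
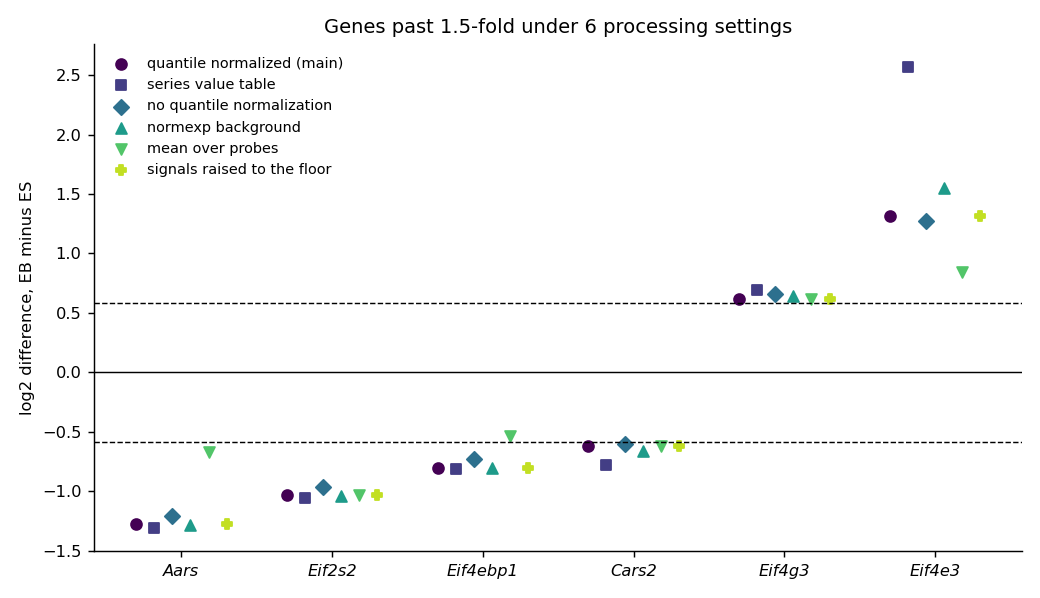
Log2 difference in signal, EB minus ES, of the 6 genes past 1.5-fold under 6 processing settings, with the 1.5-fold limits dashed. Eif2s2, Cars2 and Eif4g3 move little, the mean over probes brings Aars and Eif4e3 nearer to the limit and Eif4ebp1 under it, and the series value table widens Eif4e3 to 2.57.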

How the data were processed

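RNA of 1 ES and 1 EB sample was measured on bead arrays with 46643 probes. The authors deposited 1 signal intensity per probe, averaged over beads and exported from BeadStudio 2.3.41 without normalization, per the file headers. The submitters' processing notes also name RMA and limma without a role. The other deposited columns are the number of beads, a spread between beads and, in the EB file, a detection score from 0 to 1. The spread scaled with the number of beads with a log slope of -0.44 in ES and -0.47 in EB and was read as a standard error. The deposited series value table holds processed intensity of unstated making and served as an alternative. For the array, the sources used here name no genome build.

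Intensities were quantile normalized and log2-transformed with no background removed (Python 3.11.15), where the usual normexp correction (limma 3.58.1, R 4.3.3, offset 50) was an alternative. The floor is the lowest normalized EB signal with a score above 0.99 and was applied to both arrays. Where the dimmer signal lay under it, ratios are bounds against the floor. Padded numbers of at least 10000 in probe identifiers were taken for NCBI Gene numbers and named from a RefSeq table (GRCm38.p6), which named 9796 of 11857 (82.6%). The brightest probe stood for a gene. Values in full are given for genes past 1.5-fold, those with several probes above the floor and the highest and lowest of each role. The counts include 1 gene whose own values are not reported here. Up to 4 genes of each related list past the limit are named by that rule. Others named from the lists, among them the highest and lowest, were chosen after their values were seen, as were the 2 promoter motifs. The members and lists were chosen with earlier results of these data known. The size rule was tried on simulated arrays with 2-fold changes in bright probes and noise between beads only. That setting holds no spread between samples or between probes of a gene, so it cannot say how the rule fares there. No test across samples was possible, and the number of arrays limits the precision.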

Additional observations from a re-analysis of the deposited data

How the results depend on the processing

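The alternatives were the series value table, signals without quantile normalization, normexp background, the mean over probes, detection in both samples, no detection filter, signals raised to the floor and a 2-fold limit. No paired analysis was possible because there was 1 array per group, so no array could be left out either. The counts of 2 higher and 4 lower genes stayed within 1.5 times under each alternative except the series value table and the 2-fold limit. The table gave 4 higher (Eef1a1 and Wars2 besides Eif4g3 and Eif4e3) and 7 lower (Eif2d, Tars and Iars besides the 4), where 24.2% and 19.5% of all detected named genes passed the limit too. The EB signal of Iars is under the floor, and the cause of these changes was not tested. The 2-fold limit gave 1 higher and 2 lower, as its construction sets. The median of the 51 genes ran from -0.05 to 0.0018. No gene past 1.5-fold changed direction under any of these settings, of which those on detection and the floor cannot move their values. Depth of signal limits the 7 genes under the floor, and Iars, Wars2, Eef1a1, Eif4e3, Eef2kmt, Mars2, Eif3m and Eif3h near it.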
